A study of Arabidopsis thaliana with 72 samples.

Results

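Transcript levels of untreated Arabidopsis seedlings in the subjective afternoon were set against those late in the subjective night. The 8 arrays used, of 72 in the series, are the untreated ones whose labelled time leaves a remainder of 9 or of 21 hours after whole days of 24 h are taken away. The hour 9 group holds 4 arrays, with 2 replicates at 57 h and 2 at 81 h, and the hour 21 group holds 4 arrays, with 2 replicates at 69 h and 2 at 93 h. No measured value entered this choice. Both groups are C24 wild type with no treatment, and total RNA came from aerial tissue. Seedlings had 11 days of 12 h light and 12 h dark and then continuous light, so both groups were in the light when harvested. Afternoon and late night are therefore hours of a count that runs on from the earlier day, and the labels do not state the event at hour 0. The labels give replicate 1 a developmental stage of 1.03 and replicate 2 a stage of 1.04, and their growth notes are worded differently. Nothing states that replicates were separate sowings, and a p-value here speaks only of the spread among these arrays, which may be technical. The rest of the series holds the same times in C24 wild type treated with nicotinamide, an inhibitor of the enzyme that makes the calcium-releasing signal cyclic ADP-ribose, and in the clock mutant toc1-1, whose rhythms run short. By its title, the series looks for circadian transcripts that follow cytosolic calcium.

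The plant circadian clock is a network of transcription factors that repress or activate each other at set hours, so that morning, evening and night genes follow in turn even without a change of light. Through this network large groups of output genes, for photosynthesis, pigments, growth, sugar and cold acclimation, reach their crest at a preferred hour. In continuous light the rhythm free-runs, and a difference between opposite hours of the cycle is then not a direct response to light or dark.

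Values are signals on a linear scale, which the authors scaled to an equal mean on every array, so that a signal is in arbitrary array units and is comparable between arrays for 1 probe set only. The median signal was 33.7 to 38.1 on the hour 9 arrays and 34.3 to 34.9 on the hour 21 arrays. Precision is set by how many arrays there are. The array at 93 h, replicate 1, stood apart. On it 128 of 13648 probe sets lay at least 2-fold below all 7 other arrays, while the array with the next highest count, 57 h replicate 2, had 13 and the other 6 arrays had 0 or 1. Of 14 listed root markers 3 had a named probe set, and their summed signal was 3300 to 4200 on the hour 9 arrays and 1340 to 3400 on the hour 21 arrays, with the 1340 on that array. The beta-glucosidase PYK10 had signals of 3220 to 4110 at hour 9 and 1330 to 3360 at hour 21, the root hair expansin EXPA7 had 22.6 to 33.9 at hour 9 and 3.95 to 15.1 at hour 21, and no root marker was at 0. Leaf markers with a named probe set were 2 of 13, RCA with 3830 to 4880 at hour 9 and 4520 to 7120 at hour 21 and PORB with 1890 to 2470 at hour 9 and 1010 to 1460 at hour 21. The guard cell marker FMA, 1 of 5 listed, had 31.9 to 49.1 at hour 9 and 38.6 to 58.2 at hour 21. The actin control's ratio of its 3′ to its 5′ probe set, which rises as RNA is broken down, was 0.86 to 1.32 in log2 at hour 9 and 1.06 to 1.54 at hour 21, with 1.54 and 1.51 on the arrays at 93 h. Their part in the results was not tested, and results that rest on the array at 93 h, replicate 1, are also given without it. In whole tissue, fewer cells of a type and less RNA per cell cannot be told apart.

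At hour 9 the clock gene GI, the thionin THI2.2 and the cold dehydrin LTI30 were higher than at hour 21. The sucrose-phosphate synthase ATSPS4F was lower, and so was 1 of 3 tested antenna genes, LHCB4.3. All 5 tested flavonoid genes (41 listed) were lower, and so were 3 of 4 tested genes of the Calvin cycle and photorespiration (31 listed). Over all tested genes 9.04% were lower. The call of 1 of these 3, PRK, was lost in 5 of 24 alternative settings. Of 13648 probe sets tested with limma on log2(signal + 16), 1367 (10.0%) were higher at hour 9 and 1307 (9.58%) were lower, at an adjusted p under 0.05. Together 2674 probe sets (19.6%) differed, and the 4 arrays of hour 9 did not overlap with the 4 of hour 21 in 2578 (18.9%), called or not. The median log2 difference, hour 9 minus hour 21, was 0.60 among probe sets called higher, -0.57 among those called lower and 0.01 over all tested. At least 2-fold differences were found for 246 of the higher and 156 of the lower probe sets. The array at 93 h, replicate 1, was the lowest of the 8 for 851 of the 1367 higher probe sets. The other hour 21 arrays were lowest for 124 to 231. It was the highest of the 8 for 637 of the 1307 lower ones, and the other hour 21 arrays for 151 to 336. Over all tested it was lowest for 18% and highest for 19.5%. Without the array at 93 h, replicate 1, 921 probe sets were higher and 899 lower, a smaller set of arrays that also gives less power. Of the called probe sets, 692 higher and 653 lower ones have exactly 1 annotated gene and can be named, and the genes below are taken from these.

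GI (GIGANTEA, AT1G22770) is a clock component of the evening that acts in flowering and in the turnover of other clock proteins. Its signals were 299, 251, 293 and 264 on the hour 9 arrays, in the order 57 h replicates 1 and 2 and 81 h replicates 1 and 2. At hour 21 they were 28.5, 47.9, 22.0 and 34.5, in the order 69 h replicates 1 and 2 and 93 h replicates 1 and 2, an order kept in all that follows. All 4 afternoon values lay far above all 4 late night values. The log2 difference was 2.59 ± 0.18 (SE, adjusted p = 2.73e-08), with means of 8.19 ± 0.11 at hour 9 and 5.60 ± 0.32 at hour 21 (SD of log2 values, n = 4 each).

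The largest positive difference belonged to AT5G62360, for which the tables used here give no name. Its signals were 390, 183, 214 and 269 at hour 9, against 22.5, 48.0, 11.9 and 33.1 at hour 21, and the mean signal was 9.14 times that of hour 21. Even the lowest afternoon value, 183, lay far above the highest late night value, 48.0. The log2 difference was 2.65 ± 0.23 (SE, adjusted p = 2.37e-07). THI2.2, a thionin and so a small antimicrobial peptide, had 1180, 1870, 1260 and 1610 at hour 9 and 266, 321, 207 and 302 at hour 21. It was high on each afternoon array and low on each late night array, by 2.36 ± 0.25 in log2 (SE, adjusted p = 3.29e-06).

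The dehydrin LTI30, a protective protein of cold and dry cells, had signals of 240, 251, 281 and 362 at hour 9 and 90.4, 81.1, 15.1 and 106 at hour 21. The lowest of these, 15.1, was on the array at 93 h, replicate 1. The log2 difference was 1.90 ± 0.29 (SE, adjusted p = 0.000119), and 1.41 without that array (adjusted p = 0.000214).

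Of the 15 genes with the largest positive differences, 3 have a gene name. All 15 had their lowest signal of the 8 arrays at 93 h, replicate 1, as did 18% of all tested probe sets. In 8 of these 15 genes, picked out after their values were seen, the signal there was under 0.25 of the lowest of the other 3 late night arrays. AT4G26010 had 287, 378, 313 and 328 at hour 9, against 101, 123, 0.381 and 75.4 at hour 21. AT5G64100 had 265, 374, 319 and 358 at hour 9, against 86.8, 112, 5.07 and 69.2 at hour 21. AT4G30170 had 217, 250, 214 and 256 at hour 9, against 63.7, 88.1, 0.534 and 54.6 at hour 21. For these 3 genes the other 3 late night arrays also lay below every afternoon array. The others of the 8 were LTI30, AT5G17820 with 0.694 on that array, AT1G18980 with 8.92, AT1G22440 with 4.41 and AT3G22240 with 26.8. The root hair expansin EXPA18 had 41.1 to 60.3 at hour 9, against 3.89 to 38.4 at hour 21, so this root marker too was lower on all 4 late night arrays, and its 3.89 was on that one. Its log2 difference was 0.91 ± 0.21 (SE, adjusted p = 0.00409), and 0.66 without the array (adjusted p = 0.0346). PYK10 differed by 0.52, which did not pass the test (adjusted p = 0.0822), and by 0.19 without the array (adjusted p = 0.509). It did pass without 93 h replicate 2, with 0.85 (adjusted p = 0.000756), after quantile normalization, with 0.65 (adjusted p = 0.00393), without replicate 2 (adjusted p = 0.0326), with all 72 arrays (adjusted p = 0.0485) and with the replicate block (adjusted p = 0.0446).

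**Figure D1:**
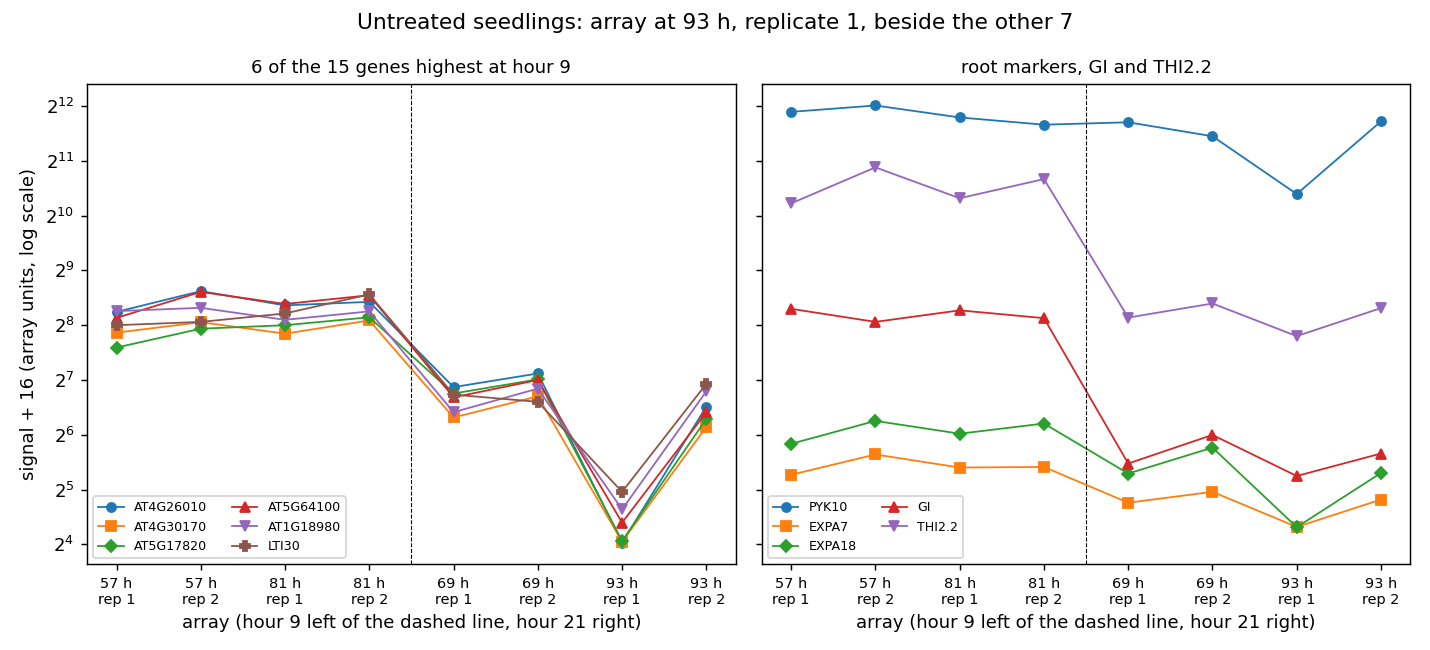
Signal + 16 on a log scale on each of the 8 untreated arrays, hour 9 on the left and hour 21 on the right of the dashed line, with lines joining the values of a gene. On the left are 6 of the 15 genes of largest positive difference, which lie far below their other late night values at 93 h, replicate 1 (AT4G26010 has a signal of 0.381 there), and on the right the 3 root markers, GI and THI2.2.

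Without that array the differences shrank and the calls stayed. AT4G26010 differed by 2.28 ± 0.37 in log2 (SE, adjusted p = 0.000203) with it and by 1.66 (adjusted p = 0.000409) without it. AT5G64100 differed by 2.3 ± 0.29 (SE, adjusted p = 1.65e-05) with it and by 1.79 (adjusted p = 1.14e-05) without it. For AT4G30170 the difference was 2.16 with it and 1.64 without it, for AT1G18980 2.06 and 1.52, for AT5G17820 1.89 and 1.33, and for AT1G22440 1.77 and 1.26. Of these, AT3G22240 moved most, with 1.77 ± 0.46 (SE, adjusted p = 0.00903) against 0.85 (adjusted p = 0.0148). At 57 against 69 h alone, which does not use the arrays at 93 h, AT4G26010 differed by 1.44 (adjusted p = 0.123), AT4G30170 by 1.45 (adjusted p = 0.0634), AT5G17820 by 0.88 (adjusted p = 0.381), AT3G22240 by 1.45 (adjusted p = 0.221), AT1G22440 by 1.33 (adjusted p = 0.0512) and LTI30 by 1.36 (adjusted p = 0.0593), and none of these 6 passed. All 30 genes of largest difference, 15 each way, still passed the test without that array. Had the array been left out before ranking, 10 of the 15 higher and 13 of the 15 lower genes would have been chosen again.

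The other genes with large positive differences were less tied to 1 array. AT5G66985 had 113, 129, 56.0 and 88.6 at hour 9, against 10.8, 19.2, 0.817 and 3.07 at hour 21, so that late night values lay near the lower end of the array's range, where log2(signal + 16) understates a fold. AT2G30600 had 328, 352, 274 and 280 at hour 9 and 74.8, 86.5, 49.7 and 58.1 at hour 21. AT1G56300 had 148, 69.6, 106 and 142 at hour 9, against 20.7, 16.5, 13.7 and 28.8 at hour 21. In all 3 the groups did not overlap, which the choice by largest difference favours, and their log2 differences were 2.22, 1.98 and 1.85. AT3G15450 had 653, 860, 891 and 1030 at hour 9 and 311, 274, 133 and 246 at hour 21, a log2 difference of 1.81 ± 0.21 (SE, adjusted p = 5.49e-06). The next genes after the 15 were AT1G22570 with 1.76, AT1G23390 with 1.73 and AT3G10020 with 1.73.

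**Figure D2:**
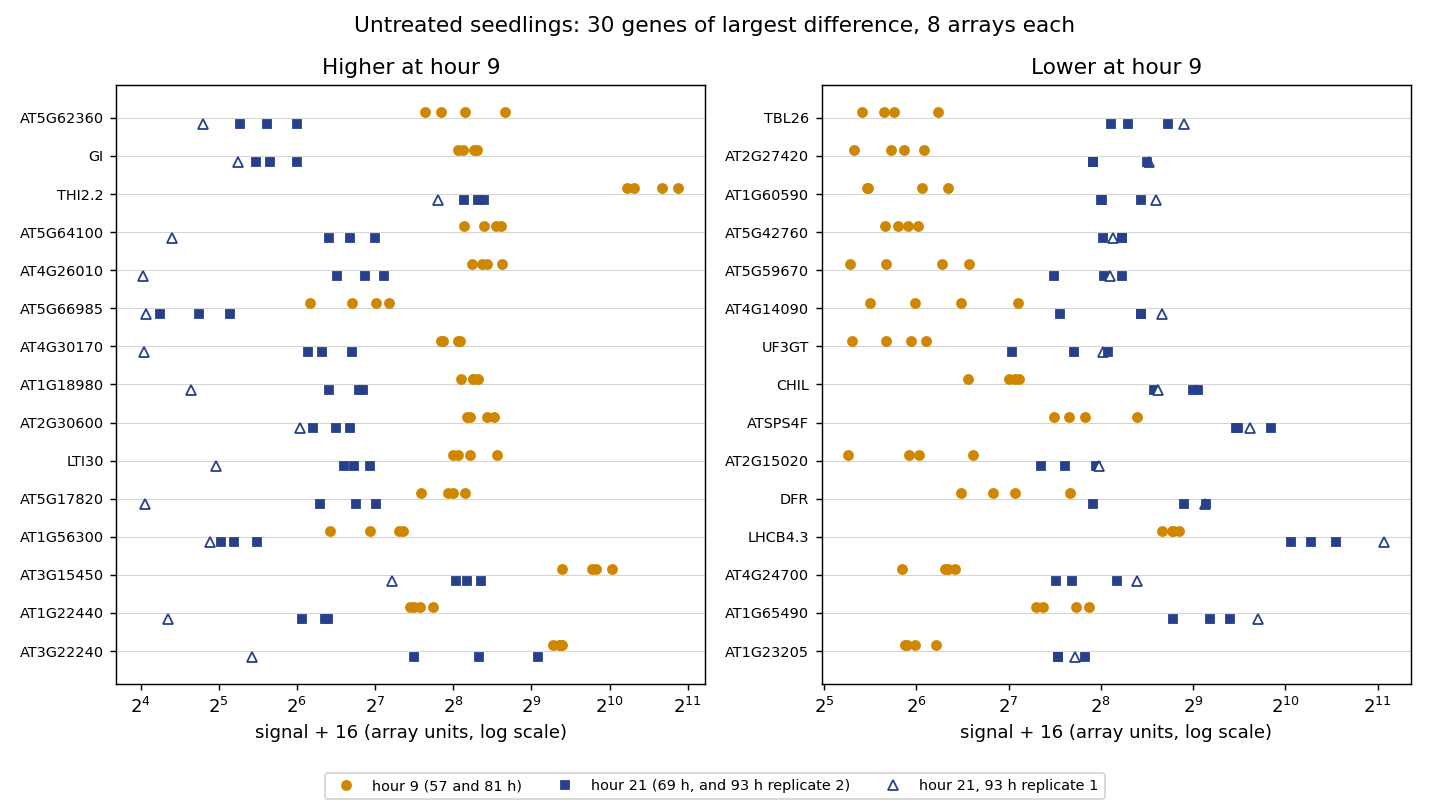
Signal + 16 on a log scale for the 15 genes with the largest positive difference (left) and the 15 with the largest negative difference (right), in untreated seedlings. Circles are the 4 arrays of hour 9, squares 3 arrays of hour 21 and open triangles the array at 93 h, replicate 1. For all 30 genes the circles do not overlap with the other symbols, beside 18.9% of all tested probe sets. The choice of the genes on these same arrays favours this.

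TBL26 (AT4G01080), of the trichome birefringence-like family that acetylates cell wall polysaccharides, had the largest negative difference. Its signals were 37.9, 26.4, 59.4 and 34.3 at hour 9, against 298, 261, 462 and 409 at hour 21. Each late night value was several times every afternoon value, and the mean at hour 9 was 0.111 of that at hour 21. The log2 difference was -2.75 ± 0.27 (SE, adjusted p = 1.18e-06). AT2G27420 had 23.9, 42.3, 37.0 and 51.5 at hour 9, against 226, 226, 352 and 347 at hour 21, and AT5G42760 had 34.4, 39.6, 44.2 and 48.6 at hour 9, against 245, 284, 264 and 285 at hour 21. Replicates of both were close and the groups far apart, with log2 differences of -2.47 ± 0.17 and -2.31 ± 0.15 (SE). AT1G60590 had 50.6, 28.0, 65.2 and 28.5 at hour 9, against 240, 242, 372 and 331 at hour 21, a log2 difference of -2.43 ± 0.24 (SE, adjusted p = 1.34e-06). AT1G23205 was low at 58.2, 43.7, 42.6 and 47.2 at hour 9, against 169, 211, 195 and 170 at hour 21, a log2 difference of -1.66 ± 0.14 (SE, adjusted p = 1.56e-07). AT5G59670 differed by -2.01, AT4G14090 by -2.0, AT2G15020 by -1.76, AT4G24700 by -1.71 and AT1G65490 by -1.70. In each the groups did not overlap, which the choice by largest difference favours. Of the 15 genes with the largest negative differences, 8 had their highest signal of the 8 arrays at 93 h, replicate 1 (19.5% of all tested probe sets). The next genes were AT3G28220 with -1.65, AT1G06000 with -1.53 and AT1G68570 with -1.49.

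Every tested flavonoid gene was lower at hour 9. Of 41 listed genes of flavonoid and phenylpropanoid synthesis 6 had a named probe set and 5 were tested, and all 5 were lower, with a median log2 difference of -1.76 beside 0.01 over all 7216 tested genes that a probe set names alone, of which 652 (9.04%) were lower and 685 (9.49%) higher. These shares of all named genes stand behind every list that follows, and most lists hold too few tested genes for their own share to be read against them. DFR, dihydroflavonol reductase, which commits flavonoids to anthocyanin, had 73.2, 98.1, 187 and 118 at hour 9, against 462, 226, 543 and 550 at hour 21. The replicates at 69 h were unlike, yet even the lower of them lay above all afternoon values. The log2 difference was -1.76 ± 0.25 (SE, adjusted p = 7.03e-05). UF3GT, a glycosyltransferase that decorates anthocyanin, had 23.3, 35.0, 52.6 and 45.3 at hour 9, against 193, 115, 245 and 254 at hour 21, a log2 difference of -1.96 ± 0.25 (SE, adjusted p = 1.78e-05). CHIL, a chalcone isomerase-like protein that aids the early steps, had 78.6, 122, 112 and 118 at hour 9, against 515, 366, 376 and 495 at hour 21. It too was low on every afternoon array, by -1.88 ± 0.20 in log2 (SE, adjusted p = 2.7e-06). UGT78D2 and UGT78D1, which add sugars to flavonols and also count among the glycosyltransferases below, differed by -1.18 and -1.44, and all 5 were also lower without the array at 93 h, replicate 1.

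Carbon fixation and sugar genes were lower in part. Of 31 listed genes of the Calvin cycle and photorespiration 4 were tested, and 3 were lower. SBPASE, sedoheptulose bisphosphatase, had 1770, 1760, 1800 and 1450 at hour 9, against 2640, 2420, 3160 and 3450 at hour 21. HPR, hydroxypyruvate reductase of photorespiration, had 2210, 2410, 2430 and 1980 at hour 9, against 3180, 3560, 3470 and 4720 at hour 21. PRK, phosphoribulokinase, had 2850, 2640, 3320 and 2380 at hour 9, against 3680, 3370, 4200 and 4820 at hour 21. For all 3 every late night array lay above every afternoon array, for PRK only just (3370 against 3320). Their log2 differences were -0.77, -0.71 and -0.52. The call of PRK was lost without 81 h replicate 2 (-0.40, adjusted p = 0.0821) and with weights that cancel a linear drift (-0.42, adjusted p = 0.0872). RCA, rubisco activase, differed by -0.24 and did not pass the test (adjusted p = 0.401).

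ATSPS4F, a sucrose-phosphate synthase and so an enzyme at the last steps of sucrose synthesis, had 211, 164, 320 and 185 at hour 9, against 693, 702, 769 and 902 at hour 21. The groups lay far apart, and the log2 difference was -1.76 ± 0.21 (SE, adjusted p = 1.11e-05). Of 42 starch and maltose genes 4 were tested and 1 was lower, APL3, a large subunit of the enzyme that makes ADP-glucose for starch. It had 30.8, 20.7, 53.2 and 28.5 at hour 9, against 131, 42.2, 105 and 124 at hour 21, where the replicate at 69 h with 42.2 lay within the afternoon range. Of 38 genes of sucrose and sugar transport 7 were tested, 1 was higher and 2 were lower. SWEET transporters export sugar across membranes. SWEET17 was higher with 218, 297, 235 and 290 at hour 9, against 139, 115, 125 and 116 at hour 21, while SWEET1 was lower with 147, 150, 156 and 176 at hour 9, against 336, 267, 308 and 333 at hour 21. SWEET2 was lower by -0.62 in log2 (adjusted p = 0.00688).

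Among light genes, single members moved. LHCB4.3, a minor antenna protein of photosystem II, had 421, 388, 445 and 423 at hour 9, against 1050, 1230, 2130 and 1480 at hour 21. Afternoon values were nearly equal, and the late night values were all higher and more spread. Its log2 difference was -1.72 ± 0.17 (SE, adjusted p = 1.18e-06), while its relatives LHCB4.2 and LHCB4.1 differed by 0.43 and 0.06 and did not pass (adjusted p = 0.14 and 0.852). HYH, a transcription factor related to HY5 of light signalling, had 29.8, 39.7, 34.4 and 29.2 at hour 9, against 71.4, 97.1, 105 and 114 at hour 21, a log2 difference of -1.19 ± 0.11 (SE, adjusted p = 5.79e-07). PORB, which makes chlorophyllide in the light, was higher with 2100, 1950, 2470 and 1890 at hour 9, against 1260, 1360, 1460 and 1010 at hour 21. LYC, a lycopene cyclase of carotenoid synthesis, was lower by -0.50. They were the called members of 8 tested genes of chlorophyll and carotenoid synthesis.

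None of 4 nuclear subunits of the photosystems and none of 67 plastid-encoded genes passed the test. The plastid-encoded genes had a median log2 difference of -0.17 and a range of -0.56 to 0.36, and the smallest adjusted p was 0.0833, for ndhK. That count of 0 rests on single arrays. Without 93 h replicate 2, 5 of the 67 were lower, among them ndhK by -0.78 (adjusted p = 0.00199) and petN by -0.73 (adjusted p = 0.0156), and without 57 h replicate 2, ndhK (-0.67, adjusted p = 0.03) and petL (-0.84, adjusted p = 0.0128) were lower, while none passed when any other 1 of the 8 arrays was left out.

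Among listed clock genes 3 were tested. GI was higher, TIC (TIME FOR COFFEE), a nuclear regulator of the clock, was lower by -0.48 ± 0.11 (SE, adjusted p = 0.00276), and XCT differed by 0.12 (adjusted p = 0.572). Of 3 tested clock outputs, COR27, a cold gene that is also a clock regulator, had 137, 63.3, 153 and 116 at hour 9, against 48.2, 31.0, 15.7 and 53.9 at hour 21. It was higher on every afternoon array, by 1.34 ± 0.23 in log2 (SE, adjusted p = 0.000403). Without the array at 93 h, replicate 1, COR27 differed by 1.05 (adjusted p = 0.00303). At 57 against 69 h alone it differed by 1 (adjusted p = 0.0827), which did not pass, and without replicate 1 by 0.84. AFR, an F-box protein of far-red signalling, was lower with 27.8, 34.6, 22.7 and 44.5 at hour 9, against 50.8, 79.3, 76.3 and 60.6 at hour 21. CCL, a clock-driven transcript, had 2830, 1510, 2740 and 2170 at hour 9, against 1330, 1050, 1140 and 2110 at hour 21. Its groups overlapped, and the log2 difference of 0.72 (adjusted p = 0.0211) was 0.50 without the array at 93 h, replicate 1 (adjusted p = 0.138), and its call was also lost without 57 h replicate 1, 69 h replicate 2 or 81 h replicate 1. Its crest was at hour 13, with 2900 and 3340 at 61 h and 3390 and 4020 at 85 h, between the hours compared.

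Cold and drought genes were higher where they moved, 3 of 5 tested, with a median log2 difference of 0.91 (all named genes: 9.49% higher, median 0.01). The dehydrin COR47 had 722, 555, 782 and 785 at hour 9, against 414, 422, 159 and 520 at hour 21, with the lowest value again at 93 h, replicate 1. Its log2 difference was 0.98 (adjusted p = 0.00438), and 0.58 without that array (adjusted p = 0.0196). COR15B, a chloroplast protein of frost tolerance, had 179, 58.5, 318 and 182 at hour 9, against 78.7, 71.8, 79.8 and 80.8 at hour 21, and the low replicate at 57 h lay below all late night values. COR15A and STZ differed by 0.32 and 0.09 and did not pass. At 57 against 69 h alone none of the 3 calls was kept, with a spread that still included the arrays at 93 h. There LTI30 differed by 1.36 (adjusted p = 0.0593), COR47 by 0.58 (adjusted p = 0.354) and COR15B by 0.40 (adjusted p = 0.527). Without replicate 1 the differences were 1.54 for LTI30, 0.48 for COR47 and 0.40 for COR15B.

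Cell wall growth genes showed 5 of 12 tested members higher (41.7%, beside 9.49% of all named genes) and none lower. Expansins loosen the wall and xyloglucan endotransglucosylases cut and rejoin its xyloglucan. EXPA8 had 125, 145, 108 and 175 at hour 9, against 23.8, 45.3, 34.2 and 44.9 at hour 21, and the expansin-like EXLA1 had 72.3, 60.7, 63.1 and 53.9 at hour 9, against 10.7, 20.0, 14.7 and 18.3 at hour 21. Both were at least 2-fold higher on each afternoon array than on each late night array. XTH18 had 39.1, 58.3, 31.2 and 31.3 at hour 9, against 8.29, 18.1, 9.79 and 13.3 at hour 21. The log2 differences were 1.54 ± 0.23, 1.3 ± 0.14 and 0.97 ± 0.17 (SE). XTH19 and XTH20 differed by 0.70 and 0.74, and without the array at 93 h, replicate 1, by 0.46 (adjusted p = 0.112) and 0.48 (adjusted p = 0.143), which did not pass. Their calls were also lost without 69 h replicate 2 and without an array at 81 h, and that of XTH20 without 57 h replicate 2. Over the whole expansin family 4 of 10 tested were higher and EXLB1 was lower, by -0.72 (adjusted p = 0.000759).

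Auxin and amino acid genes moved less. GH3.3 and WES1, which join auxin to amino acids and so lower its free level, were higher by 0.85 ± 0.18 and 0.65 ± 0.16 in log2 (SE). GH3.3 had 129, 180, 114 and 101 at hour 9, against 63.2, 74.1, 75.5 and 46.2 at hour 21, with no overlap. Of 8 tested genes of branched-chain amino acid breakdown 4 were higher, by 0.35 to 0.76. MCCA, of leucine breakdown, had 74.6, 74.3, 92.7 and 71.3 at hour 9, against 38.0, 54.3, 45.3 and 37.3 at hour 21. BCAT4 of this list is known for the synthesis of methionine-derived glucosinolates, and UGT74B1, which also acts in glucosinolate synthesis, was higher by 0.52. Without the array at 93 h, replicate 1, MCCA kept its call and IVD (adjusted p = 0.0555), ALDH6B2 (adjusted p = 0.101) and BCAT4 (adjusted p = 0.0849) did not. Their calls were also lost without certain other single arrays, of both hours, 3 to 6 arrays for each gene with that one counted.

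Enzyme families of secondary metabolism held members of both directions. Of 26 tested UDP-glycosyltransferases, which attach sugars to small molecules, 10 were higher (38.5%) and 6 lower (23.1%), beside 9.49% and 9.04% of all named genes. UGT72E2, a glycosyltransferase of lignin precursors, had 135, 157, 194 and 207 at hour 9, against 98.1, 94.9, 28.9 and 74.6 at hour 21, a log2 difference of 1.14 ± 0.18 (SE, adjusted p = 0.000184). UGT85A4 was higher by 0.81 ± 0.14 (SE, adjusted p = 0.000439). Of 12 tested cytochromes P450 2 were higher and 2 lower (16.7% each, beside the same 9.49% and 9.04%), led by CYP71B26 with 233, 175, 242 and 238 at hour 9, against 55.0, 66.2, 70.6 and 70.4 at hour 21. Without the array at 93 h, replicate 1, 7 glycosyltransferases were higher and 6 lower, and 2 cytochromes P450 were higher and 0 lower.

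Glutathione transferases, which conjugate toxic compounds, were 2 higher and 3 lower of 10 tested, numbers too small to set against 9.49% and 9.04%. GSTU22 had 82.1, 109, 97.0 and 96.1 at hour 9, against 35.7, 50.3, 7.03 and 38.0 at hour 21, and GSTU16 had 167, 131, 172 and 218 at hour 9, against 263, 273, 339 and 321 at hour 21. Neither overlapped between hours, and the directions were opposite. GSTU25 differed by 0.65 (adjusted p = 0.0399) with 0.734 on the array at 93 h, replicate 1, and by 0.31 without it (adjusted p = 0.279), and its call was lost without any 1 of 7 of the 8 arrays. Of 11 tested beta-glucosidases 2 were higher and 3 lower, and BGLU40 with 22.8, 20.8, 28.8 and 20.6 at hour 9, against 43.4, 42.7, 125 and 84.4 at hour 21 was low on each afternoon array. Without the array at 93 h, replicate 1, 2 were higher and 2 lower. BGLU33 went from -0.83 (adjusted p = 0.0214) to -0.66 (adjusted p = 0.114) and lost its call. The call of BGLU28 was lost in 6 of 24 settings.

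In the list of calcium signalling 1 of 4 tested genes differed. CaS, a calcium-sensing protein of the chloroplast thylakoid, had 1250, 1050, 892 and 1120 at hour 9, against 1740, 1610, 2460 and 2290 at hour 21. Every late night array was above every afternoon array, and the log2 difference was -0.89 ± 0.13 (SE, adjusted p = 5.75e-05). The calmodulin-like CML42 and CML23 and the glutamate receptor-like channel GLR3.3 differed by 0.11, 0.06 and 0.05 and did not pass.

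Of the remaining lists, the ubiquitin system had 1 higher and 1 lower of 28 tested (3.57% each, beside 9.49% and 9.04% of all named genes), and autophagy 1 higher (ATG8E, 0.64) and 1 lower (ATG8D, -0.50) of 8. The call of ATG8D was lost in 11 of 24 settings, among them the absence of any 1 of 5 single arrays. Among jasmonate and defence genes MYC4, a transcription factor of the jasmonate response, was lower by -0.83 ± 0.16 (SE, adjusted p = 0.00118), 1 of 4 tested. The flowering repressor SMZ was lower by -0.58 (1 of 4), a call lost without 93 h replicate 2 (-0.36, adjusted p = 0.0688). The lipase SDP1 of seed oil breakdown was higher by 0.47 (1 of 3), and VTC4 and GRX480 of the redox list were lower by -0.61 and -0.72. WRKY6 and WRKY47, of the WRKY transcription factors, were higher by 0.48 and 0.31 (2 of 5), and neither passed without the array at 93 h, replicate 1 (adjusted p = 0.179 and 0.0577) or without certain others. None of 3 gibberellin receptor genes passed.

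**Figure D3:**
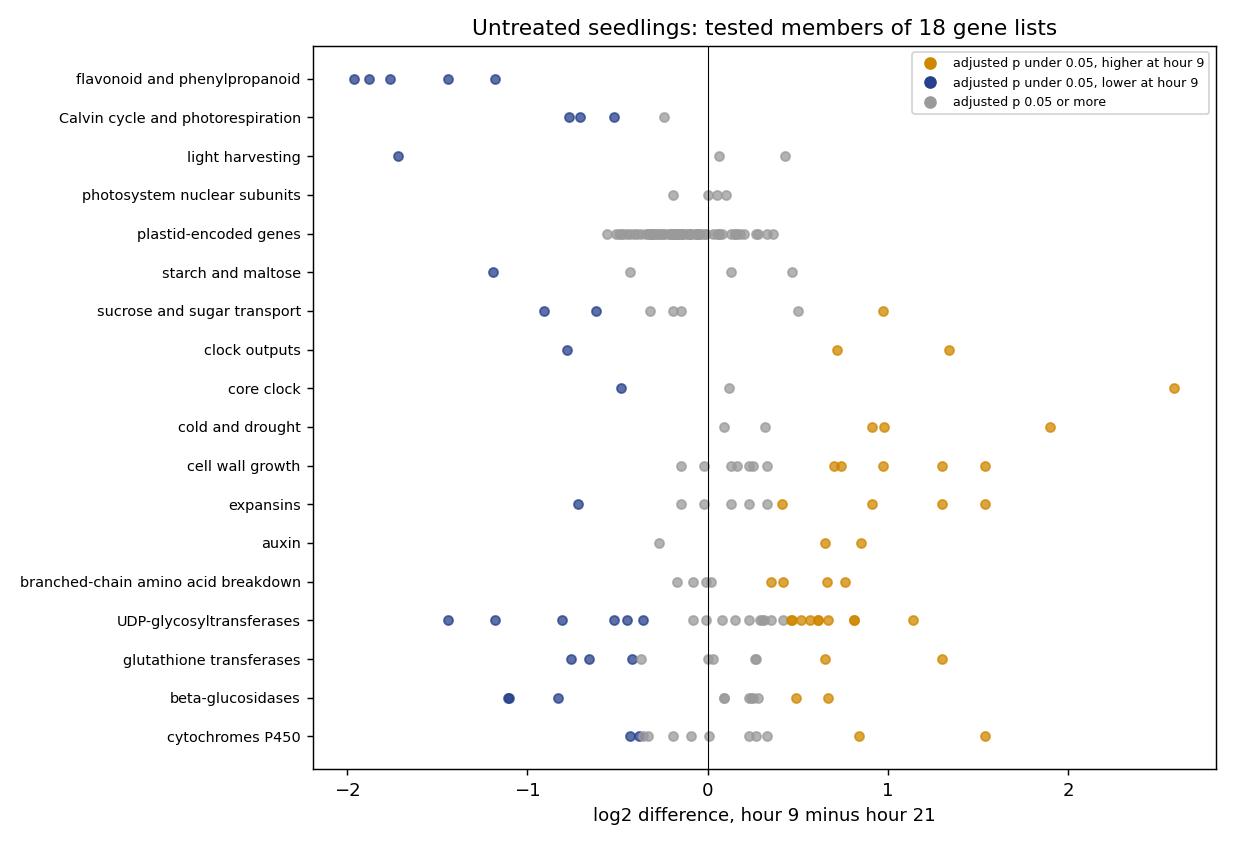
Log2 difference, hour 9 minus hour 21, of every tested member of 18 gene lists in untreated seedlings, 1 point a gene. Gold and blue points passed an adjusted p of 0.05 as higher and lower at hour 9 and grey points did not, and all 5 flavonoid genes lie below -1 while the 67 plastid-encoded genes stay between -0.56 and 0.36.

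The other 16 untreated arrays, at hours 1, 5, 13 and 17, entered the estimate of the spread and the filter on low signals but not the difference itself, and they show where its genes had their crest. Among the 1367 probe sets higher at hour 9, the highest of these 4 hours was hour 13 for 941 (68.8%), hour 5 for 293 (21.4%), hour 1 for 79 and hour 17 for 54. Over all tested probe sets hour 13 was highest for 28.5% and hour 5 for 27.2%. Among the 1307 lower at hour 9, it was hour 1 for 688 (52.6%), hour 17 for 423 (32.4%), hour 5 for 132 and hour 13 for 64. Over all tested, hour 1 was highest for 22.0% and hour 17 for 22.4%. More of the higher probe sets were thus at their highest after hour 9 than before it. With all 6 hours counted, the crest of the higher probe sets was at hour 9 for 883 and at hour 13 for 345, and that of the lower ones at hour 21 for 907 and at hour 1 for 272. Crests at hours 9 and 21 are in part fixed by the choice, which used those hours. Over all 13648 tested the crest was at hour 9 for 2653 and at hour 13 for 2378. It was at hour 21 for 2702 and at hour 1 for 1837.

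**Figure D4:**
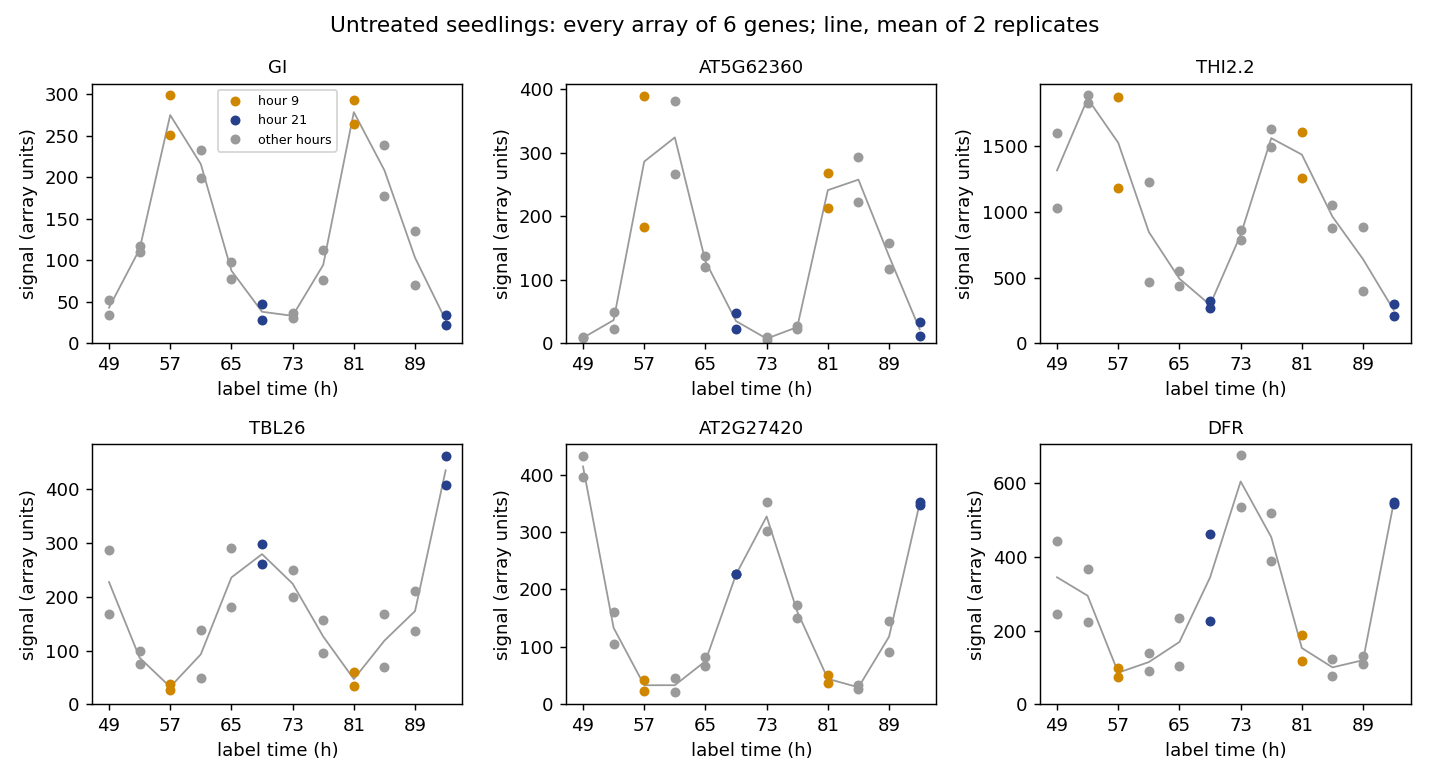
Signal on each of the 24 untreated arrays against label time in hours for 6 genes, with hour 9 in gold, hour 21 in blue, other hours in grey and a line through the mean of the 2 replicates. GI reaches 251 to 299 at hour 9, THI2.2 is highest at hour 5, and AT2G27420 and DFR are highest at hours 21 and 1.

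Time courses of single genes had unlike shapes. GI had 110 to 117 at 53 h, 251 to 299 at 57 h and 199 to 233 at 61 h, and so was highest at hour 9. AT5G62360 had 267 and 382 at 61 h and 293 and 223 at 85 h, so that hour 13 was about as high as hour 9. THI2.2 reached 1890 and 1830 at 53 h, before hour 9. TBL26 was lowest at hour 9 and highest at hour 21, and the crest of HYH was at hour 1, with 145 and 164 at 73 h. UF3GT also had its late night level at hour 1, with 314 and 182 at 73 h. For THI2.2 and HYH the hours compared therefore did not include the crest. Among the 30 genes of largest difference, the highest mean log2 value was also at hour 13 for AT5G62360 and LTI30. It was at hour 1 for AT2G27420, AT5G42760, AT2G15020 and DFR, in some by little. COR27 too was highest at hour 13, with 212 and 349 at 61 h.

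The difference between hours came back in the second cycle. Of the 2674 called probe sets 2665 had the same sign in both cycles, which the call in part requires, since both cycles entered it. At 57 against 69 h alone 286 probe sets were higher and 459 lower, and at 81 against 93 h alone 934 were higher and 707 lower. Called in both with the same sign were 494, and 0 with opposite sign. The difference of the 2 cycles' differences was called for 0 of 13648 probe sets (0%), where 774 had an unadjusted p under 0.05. Without the array at 93 h, replicate 2, 72 probe sets were called. Among genes called in the main contrast, CaS had the smallest p of this cycle test, with -1.24 in the second cycle and -0.54 in the first, followed by LrgB with -0.84 and -0.25, AT3G61870 with -0.65 and -0.07, LIL3:2 with -0.77 and -0.02, and AT5G19440 with 0.79 and 0.20. For each the adjusted p was 0.86.

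Hour 21 arrays were taken on average 12 h after the hour 9 arrays, so a steady drift over the time course would also give a difference. With weights that cancel such a drift, 832 probe sets were higher and 758 lower. All 2674 called probe sets kept their sign, which the call in part requires, since the same arrays entered both. The kept signs therefore do not test for a drift. Of these probe sets 1556 were called again, and 34 others were called only with the drift weights.

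Under nicotinamide the same hours gave a different picture. The difference itself, hour 9 minus hour 21 under nicotinamide minus that in untreated seedlings, was called for 1567 of 13648 probe sets (11.5%). That test and the choice of called genes share the untreated arrays, so the counts among the called genes are a description. Of the 1367 probe sets higher at hour 9 in untreated seedlings, 1278 were tested in the fit of all 72 arrays, and 614 of these differed between nicotinamide and untreated. Their own log2 difference under nicotinamide, on arrays that did not choose them, had a median of -0.08, and 507 kept the sign, while 155 passed the test in the opposite direction and 29 in the same. Of the 1307 lower ones 1291 were tested, with a median of 0.06 under nicotinamide, 537 of the same sign, and 100 called opposite against 18 called the same way. As shares, 39.7% of the higher and 41.6% of the lower kept the sign, beside 49% of all 13321 tested, and 12.1% and 7.75% were called in the opposite direction, beside 3.36% of all.

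GI had a log2 difference of -1.51 ± 0.19 (SE) under nicotinamide, against 2.59 in untreated seedlings, a change of -4.11 ± 0.26 (SE, adjusted p = 4.34e-15). AT2G30600 had -1.59 under nicotinamide, against 1.98 in untreated seedlings, a change of -3.57 (adjusted p = 2.23e-12). AT5G42760 had 1.74 under nicotinamide, against -2.31 in untreated seedlings, a change of 4.05 (adjusted p = 6.13e-13), AT2G27420 had 1.61, against -2.47, a change of 4.08 (adjusted p = 2.71e-12), and AT3G56290 had 1.49, against -1.45, a change of 2.94 (adjusted p = 1.21e-12). In each of these 5 genes the sign turned. The 5 flavonoid genes had values of 1.25 for CHIL, 0.88 for UGT78D2, 0.35 for UGT78D1, 0.19 for DFR and 0.13 for UF3GT under nicotinamide, all above 0, and the change passed for each of them (adjusted p = 0.000438 or less).

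The 8 genes with single low values at 93 h, replicate 1, had lower differences under nicotinamide than in untreated seedlings with that array included. They were 1.1 for AT1G18980, 0.94 for AT3G22240, 0.63 for AT1G22440 and 0.57 for AT5G17820. For AT5G64100, AT4G30170, LTI30 and AT4G26010 they were 0.56, 0.25, 0.17 and -0.06. Without the array the untreated value of AT3G22240 was 0.85, which is not above 0.94, and those of the others were 1.26 to 1.79. In limma's test, which includes the array, the change from untreated seedlings did not pass for AT1G18980 (adjusted p = 0.145), AT3G22240 (adjusted p = 0.443) and AT5G17820 (adjusted p = 0.0533). It passed for AT4G26010 (adjusted p = 0.00166), AT4G30170 (adjusted p = 0.0023), AT5G64100 (adjusted p = 0.00435), AT1G22440 (adjusted p = 0.0395) and LTI30 (adjusted p = 0.0401).

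**Figure D5:**
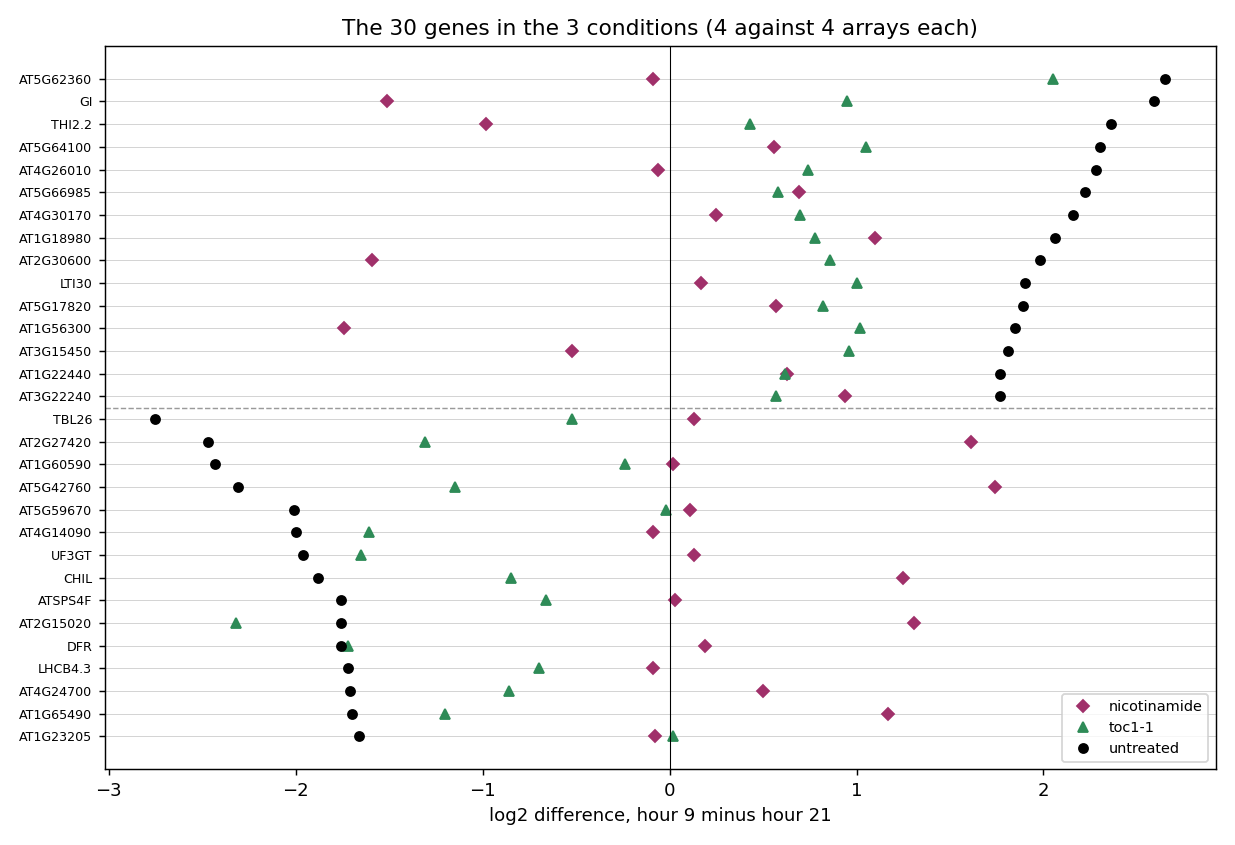
Log2 difference, hour 9 minus hour 21, of the 15 genes highest (above the dashed line) and the 15 lowest at hour 9 in untreated seedlings, with diamonds for nicotinamide, triangles for toc1-1 and circles for untreated seedlings. Under nicotinamide 7 of the upper and 12 of the lower 15 have the opposite sign, while in toc1-1 15 of the upper and 14 of the lower 15 keep theirs.

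In toc1-1 the difference between the hours differed from untreated seedlings for 154 of 13648 probe sets (1.13%), where 1225 had an unadjusted p under 0.05. Leaving out 1 untreated array lowered the count to 73 (57 h, replicate 2), 85 (69 h, replicate 1) or 78 (81 h, replicate 2). Among the 1278 tested probe sets higher at hour 9 in untreated seedlings, the median in toc1-1 was 0.20 and 1044 had the same sign, and 123 passed the test in the same direction and 7 in the opposite one. Of the 1291 lower ones the median was -0.24, 1107 had the same sign, and 202 were called the same way and 3 opposite. As shares, 81.7% of the higher and 85.7% of the lower kept the sign, beside 67.7% of all 13321 tested, and 9.62% and 15.6% were called in the same direction, beside 3.27% of all. AT1G73480 had -0.29 in toc1-1, against 1.15 in untreated seedlings, a change of -1.44 ± 0.20 (SE, adjusted p = 9.08e-06). AT1G60590 had -0.24, against -2.43, a change of 2.19 (adjusted p = 0.000131). AT1G23205 had 0.02, against -1.66, a change of 1.68 (adjusted p = 0.000131), and AT2G22420 had 0.03, against -1.40, a change of 1.43 (adjusted p = 0.000629). For these the difference of untreated seedlings was small or had the other sign in toc1-1. GI kept its sign with 0.95 ± 0.19 (SE) in toc1-1, a change of -1.65 ± 0.26 (SE, adjusted p = 0.000131). The anthocyanin genes DFR and UF3GT had -1.72 and -1.65 in toc1-1, against -1.76 and -1.96 in untreated seedlings, and COR27 had 2.07, against 1.34, and none of these changes passed the test.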

How the data were processed

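Biotin-labelled targets, made from total RNA with one-cycle labelling, were hybridised to Affymetrix ATH1 arrays. Per the submitters' processing notes, the authors used MAS5 and GCOS (versions not stated) for the deposited intensities. On each array the mean without the top and bottom 2% of probe sets was 100, a property checked on the values.

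The scale of all tests was log2(signal + 16), on which changes of low transcripts are understated. Of 22810 probe sets, 64 controls were left out and the upper 60% by mean over the 24 untreated arrays were tested. limma 3.58.1 in R 4.3.3 (with the data.table package, version 1.17.8) fitted a mean for each of the 12 times to these 24 arrays, with eBayes and its trend option (residual degrees of freedom 12, prior 7.78), and contrasted hour 9 with hour 21. Differences between conditions came from a fit of all 72 arrays with 36 means for condition and time (residual degrees of freedom 36, prior 6.74). P-values were adjusted over all tested probe sets by the Benjamini-Hochberg method.

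The supplied annotation gives 1 gene for 13513 probe sets, several for 503 and none listed for 8794, and 13436 were matched to RefSeq for current names. Only 118 of 949 listed symbols have a named probe set, so lists rest on few members, and genes without a name are given by locus. Lists and members were chosen with earlier results of these data known. Named are the 15 genes of largest difference each way with an adjusted p under 0.05 and the same sign in all 4 pairs of arrays, up to 4 members a list by smallest adjusted p, and the 5 genes of smallest adjusted p for the cycle, nicotinamide and toc1-1 tests. Other members of lists, and the next genes in each ranking, were named after their values were seen. Of 61 genes with several tested probe sets, 0 were called both ways. Promoter sequences and positions were not used here.

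On simulated data with 200 changed probe sets of 13648, this contrast recovered 32.5% of log2 changes of 0.5 (5 false calls) and 96% of changes of 1 (8 false calls). The simulated noise was independent between probe sets and arrays, and 200 changes are far fewer than the 2674 called in the data. These rates therefore need not hold for the data. Alternatives were another normalization, pseudocount, filter, set of arrays, time model, replicate block, variance model, threshold, single cycles, and each array or time course left out.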

Additional observations from a re-analysis of the deposited data

Results flagged for a closer look

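Within the groups of 4 arrays, 10 of 280 tested had 1 array far from the other 3 by Dixon's test, and chance flags about 1 in 20 groups. On the array at 93 h, replicate 1, LTI30 had a signal of 15.1 against 81.1 to 106 on the other hour 21 arrays, AT1G22440 had 4.41 against 50.8 to 68.4, XTH20 had 5.37 against 24.7 to 28.2 and SMZ had 48.0 against 95.0 to 101. On that array root markers were also lowest, with 1330 for PYK10, and their part in these values was not tested. The call of XTH20 was lost without the array, and those of LTI30, AT1G22440 and SMZ were not, though SMZ lost its call without 93 h replicate 2 (-0.36, adjusted p = 0.0688).

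Single values elsewhere were 1450 for SBPASE at 81 h, replicate 2, against 1760 to 1800 on the other hour 9 arrays, 92.7 for MCCA at 81 h, replicate 1, against 71.3 to 74.6, 175 for CYP71B26 at 57 h, replicate 2, against 233 to 242, and 1760 for the plastid gene rpoA on that same array against 923 to 1000. At hour 21 CYP71B28 had 117 at 69 h, replicate 1, against 144 to 149, and PUB49 had 88.4 at 93 h, replicate 2, against 75.5 to 76.0.

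The difference between the hours itself differed from untreated seedlings under nicotinamide by -4.11 in log2 for GI, -3.57 for AT2G30600, 4.05 for AT5G42760, 4.08 for AT2G27420 and 2.94 for AT3G56290. In toc1-1 it differed from untreated seedlings by -1.65 for GI, -1.44 for AT1G73480, 2.19 for AT1G60590, 1.68 for AT1G23205 and 1.43 for AT2G22420. All 10 passed an adjusted p of 0.05 in limma's test of the difference, and the genes were taken from those called in the untreated arrays that this test also uses.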

How the results depend on the processing

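In the main setting 1367 probe sets were higher and 1307 lower at hour 9, 0 differed between cycles, 1567 changed under nicotinamide and 154 in toc1-1. Quantile normalization, a pseudocount of 1, no filter, the upper 40%, all 72 arrays, only the 8 arrays, hour-of-day means and no intensity trend moved each count they give by less than 1.5 times. Counts moved further in these settings. Weights that cancel a linear drift gave 832 higher and 758 lower, the first cycle alone 286 and 459, the second cycle alone 934 and 707, and a 2-fold minimum 246 and 156. An adjusted p under 0.01 gave 757 and 763, with 891 changed under nicotinamide and 60 in toc1-1, and a pseudocount of 64 gave 235 in toc1-1. The cause of these shifts was not tested beyond the stricter rules and fewer arrays. With 1 array or 1 time course left out, counts ranged from 198 to 1255 higher, 286 to 1343 lower, 0 to 72 between cycles, 631 to 1453 under nicotinamide and 52 to 203 in toc1-1. The 72 came without 93 h replicate 2, and 4 without replicate 2. The 198 higher and 287 lower came without replicate 1 and the 394 and 286 without replicate 2, where each time is a lone array assumed to vary like the rest. Counts in toc1-1 fell to 73, 85 and 78 when the array at 57 h (replicate 2), 69 h (replicate 1) or 81 h (replicate 2) was left out.

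Same-numbered arrays deviated together in part. Among the times compared, the 6 correlations of replicate differences ran from -0.0233 to 0.378, and 4 exceeded 0.1. Over all 12 times, 44 of 66 exceeded 0.1, with a range of -0.208 to 0.462. The labelled stage also differs between the replicate numbers. The main setting has no term for the number, so an effect shared by same-numbered arrays was not removed there. With the number as a replicate block 1593 were higher, 1615 lower, 0 differed between cycles, 1850 changed under nicotinamide and 211 in toc1-1.

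Of the 30 genes of largest difference none reversed in any setting. Calls were lost in the first cycle alone for AT5G17820, LTI30, AT4G30170, AT4G26010, AT3G22240 and AT1G22440, with only the 8 arrays for AT3G22240 (adjusted p = 0.0576), without replicate 1 for LTI30 (adjusted p = 0.189) and AT3G22240 (adjusted p = 0.582), and without replicate 2 for ATSPS4F (adjusted p = 0.153). CYP71B28 lost its call in 18 of 24 settings, GSTU25 in 16 of 23, UBP22 in 15 of 24 and both WRKY genes in 14. Over single genes, 284 of 3320 values no longer passed, 23 newly passed and 0 reversed. Only genes called in the main setting could count as reversed, and a change of sign in an uncalled gene was not counted. Signals near 0 carry no order, and log2 changes of 0.5 were often missed in the simulation.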
